A study of Mus musculus with 2 samples.

Results

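Pleiotrophin (Ptn), midkine (Mdk), the receptor phosphatase gene Ptprd and the 4 syndecan genes Sdc1, Sdc2, Sdc3 and Sdc4 were followed across single femur cells, 7 of the 24866 genes in the deposited count table. They form a ligand and receptor set, chosen by their CPM and their shares of positive cells across classes of these same cells. Their levels are therefore given as a description, with no p-value for any of them. The cells came from the femurs of 2 C57/B6 littermates aged 6 days after birth, genotype CTSK-cre+ mTMG, and were sorted one by one as reporter-positive. In that genotype Cre is driven by the promoter of cathepsin K (Ctsk), and membrane GFP marks any cell in which Cre is or has been active together with its descendants, so the reporter does not show that Ctsk is on at the time of sorting. There was no second genotype or treatment. Animal 1 filled plate 47 and animal 2 filled plate 48, so animal and plate cannot be told apart.

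Wells with at least 500 detected genes and at most 20% mitochondrial counts were used, 318 of 319 for animal 1 and 335 of 339 for animal 2. Mitochondrial counts made up 26.7% to 94.2% of the 5 discarded wells. Median depth was 101207 counts per cell in animal 1 and 119126 in animal 2, and the shallowest cell had 9767 counts. The plates share a well layout, and 276 pairs of quadrant and well barcode occurred on both. The 653 cells fell into 10 clusters on 117 cell type marker genes, with none of the 7 genes or their pathway genes used. Clusters were named only where enough markers of a list were raised. Periosteal fibroblast-like cells (159 cells; clusters 3 and 6, led by Kitl, Itga2b and Dpt and by Pi16, Dpp4 and Ly6a), chondrocyte-like cells (125) and tendon and ligament-like cells (70) took a name. Cluster 2 (108 cells, led by Cytl1, Prg4 and Cd68), cluster 4 (90, led by Tnni2, Erg and Matn4) and cluster 7 (59, led by Mmp9, Alpl and Mmp13) stayed unnamed. These 6 classes had at least 10 cells in each animal. Pericyte and smooth muscle-like cells (17), osteoblast-like cells (16) and cluster 10 (9 cells, led by Tspan15) were smaller. The markers of cluster 3 were mixed: Kitl and Itga2b, which led it, are from the marrow stroma and megakaryocyte lists. Cxcl12, Ebf3 and Lepr of the marrow stroma list were also raised there, and its name rests on 8 raised fibroblast markers. The labels call the sorted cells mesenchymal. Col3a1 reached 5 counts in 93.9% of cells and Col2a1 in 86.1%, whereas no gene of the macrophage, neutrophil, lymphoid, erythroid, megakaryocyte, endothelial, osteoclast or Schwann lists did so in more than 4.90%.

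Pleiotrophin and midkine are small secreted growth factors that bind heparin, and they are deposited in the matrix of developing cartilage and bone. They bind heparan sulfate and chondroitin sulfate chains, and their cell surface receptors include the phosphatase PTPRZ1, the kinase ALK, LRP1, integrins and the syndecans. Syndecans are transmembrane proteoglycans whose heparan sulfate chains hold growth factors at the cell surface and whose short cytoplasmic tails bind PDZ proteins and the actin cytoskeleton. Ptprd encodes a type IIa receptor protein tyrosine phosphatase, a family known for binding heparan sulfate proteoglycans and synaptic adhesion partners.

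On mm10 with GENCODE gene models, Ptn lies at chr6:36714929-36810220 and Mdk at chr2:91929805-91932297, both on the minus strand. Ptprd spans chr4:75941238-78211961 on the minus strand. Sdc1 lies at chr12:8771323-8793715, Sdc2 at chr15:32920723-33034935 and Sdc3 at chr4:130792537-130826319, all on the plus strand. Sdc4 lies at chr2:164424247-164443887 on the minus strand. Within Ptprd the table lists 4 overlapping predicted genes on the opposite strand with 83 counts together, against 3325 for Ptprd, and 1 overlapping gene within Sdc3 had 2 counts. Whether the counting used strand is not given in the sources used here.

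The upstream sequences of Ptn and Sdc4 are shown because the levels of these 2 genes ran furthest apart between the chondrocyte-like and the other cells. RefSeq on GRCm38.p6 gave a promoter for Ptn, Sdc1, Sdc3 and Sdc4, 4 of the 7 genes. Each line below runs 5′ to 3′ on the gene's own strand from 250 to 51 bases before the RefSeq start. For Ptn it covers chr6:36810230-36810429, upstream of the gene model. For Sdc4 it covers chr2:164443239-164443438, upstream of exon 1 of transcript Sdc4-201 (chr2:164443090-164443186) and downstream of exon 1 of transcript Sdc4-202 (chr2:164443799-164443887), inside the first intron of the latter. Capitals mark any match, on either strand, to 6 motifs. The first is the GC box, spelled GGGCGG. The promoter elements CCAAT and the TATA box, spelled TATAAA, were also searched. The binding sites were the core of RUNX proteins, spelled TGTGGT, the site of the AP-1 proteins, spelled TGACTCA, and the core of SOX proteins, spelled ACAAAG.
Ptn: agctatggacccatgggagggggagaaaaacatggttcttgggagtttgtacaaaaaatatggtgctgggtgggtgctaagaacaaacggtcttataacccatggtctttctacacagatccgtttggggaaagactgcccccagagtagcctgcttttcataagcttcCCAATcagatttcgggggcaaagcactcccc
Sdc4: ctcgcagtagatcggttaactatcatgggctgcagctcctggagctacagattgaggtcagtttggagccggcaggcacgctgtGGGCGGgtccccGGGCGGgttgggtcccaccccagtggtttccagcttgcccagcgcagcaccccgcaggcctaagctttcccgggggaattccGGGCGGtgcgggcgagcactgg
The Ptn stretch held 1 CCAAT and no GC box, with 49% G or C and 3 CpG. The Sdc4 stretch held 3 GC boxes that did not overlap and no CCAAT, with 66% G or C and 14 CpG. Neither held any of the other 4 motifs. The same stretch of Sdc1 held 2 GC boxes and 1 CCAAT, with 70% G or C and 8 CpG. That of Sdc3 held 1 GC box and no CCAAT, with 73% G or C and 22 CpG. GC boxes were thus not particular to Sdc4 among the genes with a promoter. Over 32851 RefSeq mouse promoter stretches of the same 200 bases, 24.6% held a GC box, 28.4% a CCAAT, 9.14% a TATA box, 11.6% the RUNX core, 3.61% the AP-1 site and 13.6% the SOX core, and the median was 51.5% G or C with 4 CpG. A match is a description of the letters only.

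Levels are given in CPM, the gene's counts scaled by the summed counts of all genes in the cells of a class in 1 animal. A cell was called positive for a gene at 5 counts or more, and each percentage of cells below uses that rule. For each gene between 0 and 6 cells had exactly 4 counts and between 2 and 5 had exactly 5. Of the cells with any count of a gene, 15.5% to 33.1% by gene had 1 to 4 counts and so were not called positive, and shares of cells positive for a pair of genes rise where 1 count is taken as enough. Counts are not scaled by gene length, so each gene was compared between classes and not with the other genes. Each class yields 1 value from each of 2 animals.

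Of the ligands, Ptn was high in cluster 7, the tendon and ligament-like and the periosteal fibroblast-like cells, and low in the chondrocyte-like cells. In animals 1 and 2 respectively, the Ptn level was 1354 and 1849.9 CPM in cluster 7, 1104 and 1696 CPM in tendon and ligament-like cells, and 1289 and 1139 CPM in periosteal fibroblast-like cells. It was 272 and 192 CPM in cluster 4, 139 and 78.8 CPM in cluster 2, and 24.8 and 39.9 CPM in chondrocyte-like cells. Over the 2 animals the tendon and ligament-like range overlapped both cluster 7 and the periosteal fibroblast-like cells, which did not overlap each other. None of the lower classes overlapped its neighbours. The mean of the top class, 1602 CPM ± 351 (SD, n = 2), was 49.5 times that of the chondrocyte-like cells, 32.4 CPM ± 10.7 (SD, n = 2). Ptn-positive cells made up 71.8% and 58.0% of periosteal fibroblast-like cells but 13% and 12.5% of chondrocyte-like cells, 9 of 69 and 7 of 56 (exact 95% binomial intervals 6.14% to 23.3% and 5.18% to 24.1%). With every cell thinned to 10000 counts and 1 count taken as positive, those shares were 70.5% and 60.5% against 8.70% and 10.7%. The classes therefore differed in how many cells carried Ptn and in how much each positive cell carried: the median positive cell held 1345 CPM among periosteal fibroblast-like cells and 224 CPM among chondrocyte-like cells. Of all Ptn counts, 46.2% lay in periosteal fibroblast-like cells, 24.9% in cluster 7, 19.7% in tendon and ligament-like cells and 1.19% in chondrocyte-like cells.

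Mdk, which encodes the second member of the growth factor family, followed the same broad order over a narrower range. Its level was 580 and 495 CPM in cluster 7, 555 and 361 CPM in periosteal fibroblast-like cells, and 373 and 263 CPM in tendon and ligament-like cells. Cluster 4 had 160 and 130 CPM, cluster 2 had 105 and 116 CPM, and chondrocyte-like cells had 102 and 84.0 CPM. Cluster 7 overlapped the periosteal fibroblast-like cells and these overlapped the tendon and ligament-like cells, whereas the next steps down did not overlap. Chondrocyte-like cells kept a share of 23.2% Mdk-positive cells in both animals, against 60.3% and 55.6% of periosteal fibroblast-like cells. In cluster 10, 0 of 9 cells, 2 from animal 1 and 7 from animal 2, had an Mdk count, which allows a share of up to 33.3%.

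The periosteal fibroblast-like class was not uniform in the ligands. In cluster 3, Mdk stood at 773 and 588 CPM, and in cluster 6, led by Pi16, Dpp4 and Ly6a, at 185 and 148 CPM, with no overlap between the clusters. The Ptn level went the other way, 1213 and 885 CPM in cluster 3 against 1418 and 1379.6 CPM in cluster 6. Sdc2 was likewise lower in cluster 3, at 293 and 371 CPM, than in cluster 6, at 500.2 and 484 CPM. Among 95 cells of cluster 3 and 64 of cluster 6, positive shares for Mdk were 70.6% and 72.7% against 40.7% and 35.1%.

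Ptprd, the receptor phosphatase, was concentrated in cluster 7. Its level there was 219 and 211 CPM, and 59.0% and 50% of the cells were positive (exact 95% intervals 42.1% to 74.4% and 27.2% to 72.8%). Tendon and ligament-like cells had 66.5 and 37.8 CPM and periosteal fibroblast-like cells 36.9 and 34.9 CPM. Cluster 4 had 12.2 and 8.42 CPM, chondrocyte-like cells 5.30 and 4.81 CPM, and cluster 2 had 0 and 2.60 CPM. No neighbouring classes overlapped in this order, but tendon and ligament-like and periosteal fibroblast-like cells came close, at 37.8 and 36.9 CPM. Positive cells were 19.0% and 7.14% of the former in animals 1 and 2, against 8.97% and 9.88% of the latter. Cluster 7 supplied 50.1% of all Ptprd counts from 59 of the 653 cells, and the highest single cell held 8.71% of the class total. The osteoblast-like class was the other one with frequent Ptprd, 149 and 85.2 CPM, positive in 8 of 10 cells of animal 1 and 2 of 6 cells of animal 2. Osteoblast markers summed over the list to 2394 CPM in cluster 7, where Alpl, Mmp13 and Sp7 were raised, and to 21784 CPM in the osteoblast-like class. In cluster 4 the list summed to 2800 CPM, of which Spp1 alone made up 2022 CPM. Over single cells the gene closest to Ptprd by Spearman's rho was Alpl (0.31, n = 653), an osteoblast marker named here after its value was seen. In chondrocyte-like cells 3 of 125 were positive and 1 cell held 42.0% of the class's Ptprd counts.

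**Figure D1:**
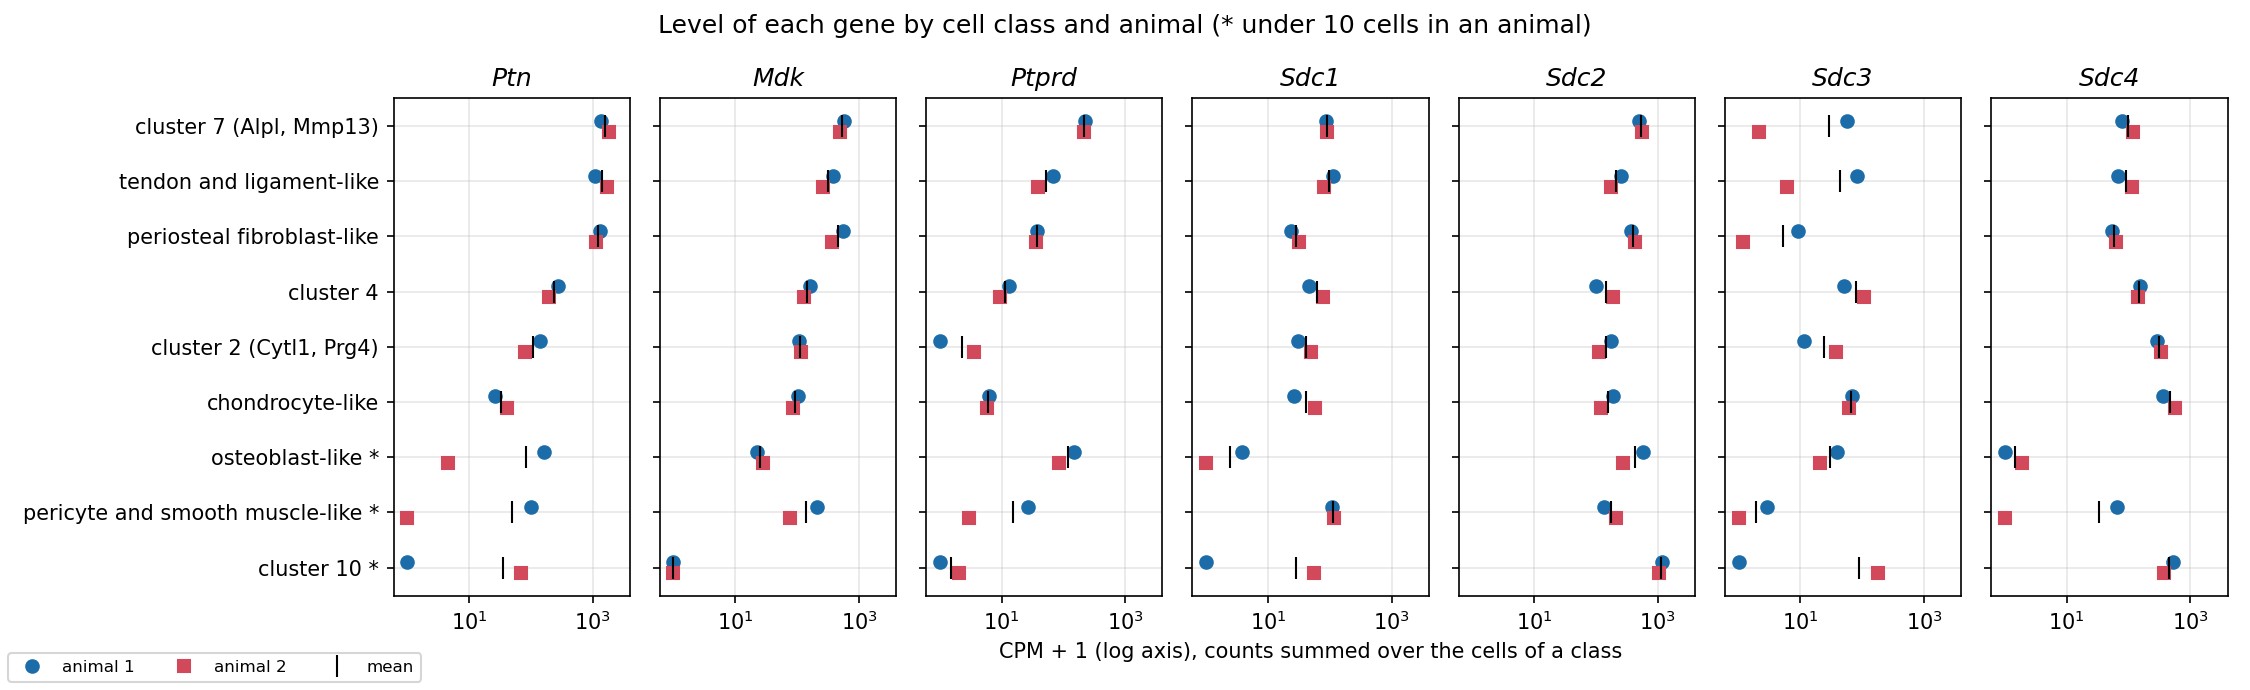
Level of each gene (CPM + 1, log axis) by cell class, circles for animal 1, squares for animal 2 and a tick for their mean; classes with an asterisk have under 10 cells in an animal. Among the 6 large classes Ptn runs from 1602 CPM in cluster 7 down to 32.4 CPM in chondrocyte-like cells, and Sdc4 runs the other way, from 466 CPM in chondrocyte-like to 57.8 CPM in periosteal fibroblast-like cells.

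Among the syndecans, Sdc4 was highest in chondrocyte-like cells and Sdc2 in cluster 7 of the 6 large classes. Sdc4, the syndecan of focal adhesions, was at 362 and 569 CPM in chondrocyte-like cells, 287 and 333 CPM in cluster 2, and 153 and 144 CPM in cluster 4. It was at 78.4 and 119 CPM in cluster 7, 66.3 and 112 CPM in tendon and ligament-like cells, and 54.1 and 61.4 CPM in periosteal fibroblast-like cells. Only cluster 7 and the tendon and ligament-like cells overlapped. Sdc4-positive cells were 76.8% and 69.6% of chondrocyte-like cells and 15.4% and 14.8% of periosteal fibroblast-like cells, and 72.5% and 69.6% against 17.9% and 14.8% after thinning. Chondrocyte-like cells and cluster 2 held 49.3% and 24.3% of all Sdc4 counts. Among osteoblast-like cells 0 of 16 were Sdc4-positive, which allows a share of up to 18.8%, although their median depth was the highest of the classes, 175037 counts per cell.

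Sdc2, a syndecan known from mesenchymal cells, was at 503 and 554 CPM in cluster 7 and 370 and 429 CPM in periosteal fibroblast-like cells. The other 4 large classes overlapped one another in a chain: 252 and 173 CPM in tendon and ligament-like cells, 188 and 121 CPM in chondrocyte-like cells, 98.9 and 191 CPM in cluster 4, and 174 and 111 CPM in cluster 2. Sdc2 was positive in 50.1% of all cells and still in 49.3% and 37.5% of chondrocyte-like cells. All 9 cells of cluster 10 were Sdc2-positive, at 1165 and 1059 CPM, and that cluster had 2 cells in animal 1.

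Sdc1, best known from epithelia and plasma cells, varied by 3.55 times between the highest and the lowest mean of the large classes. That was the narrowest range of the 7 genes, close to the 3.72 times of Sdc2. It was at 114 and 79.0 CPM in tendon and ligament-like cells and 87.4 and 91.0 CPM in cluster 7. Cluster 4 had 45.6 and 77.1 CPM, chondrocyte-like cells 25.2 and 56.7 CPM, cluster 2 had 30.2 and 49.6 CPM, and periosteal fibroblast-like cells 23.04 and 31.3 CPM. Tendon and ligament-like cells and cluster 7 overlapped each other but not cluster 4, though 79.0 and 77.1 CPM came close. The last 4 classes overlapped their neighbours, so their order is not resolved by 2 animals.

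Sdc3, known as a pleiotrophin receptor of nerve cells and of limb cartilage, differed between the animals in several classes. Its level was 49.9 and 106 CPM in cluster 4 and 68.2 and 61.3 CPM in chondrocyte-like cells. In tendon and ligament-like cells it was 81.1 CPM in animal 1 and 5.15 CPM in animal 2, and in cluster 7 it was 54.8 and 1.17 CPM. Cluster 2 had 10.4 and 36.6 CPM. Periosteal fibroblast-like cells had 8.27 and 0.20 CPM, with 2 of 78 and 0 of 81 cells positive, where the 0 allows a share of up to 3.70%. Sdc3 was thus near 0 in the class that held most Ptn counts. The animals were close in chondrocyte-like cells, which held 34.4% of all Sdc3 counts, and far apart in tendon and ligament-like cells and cluster 7.

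**Figure D2:**
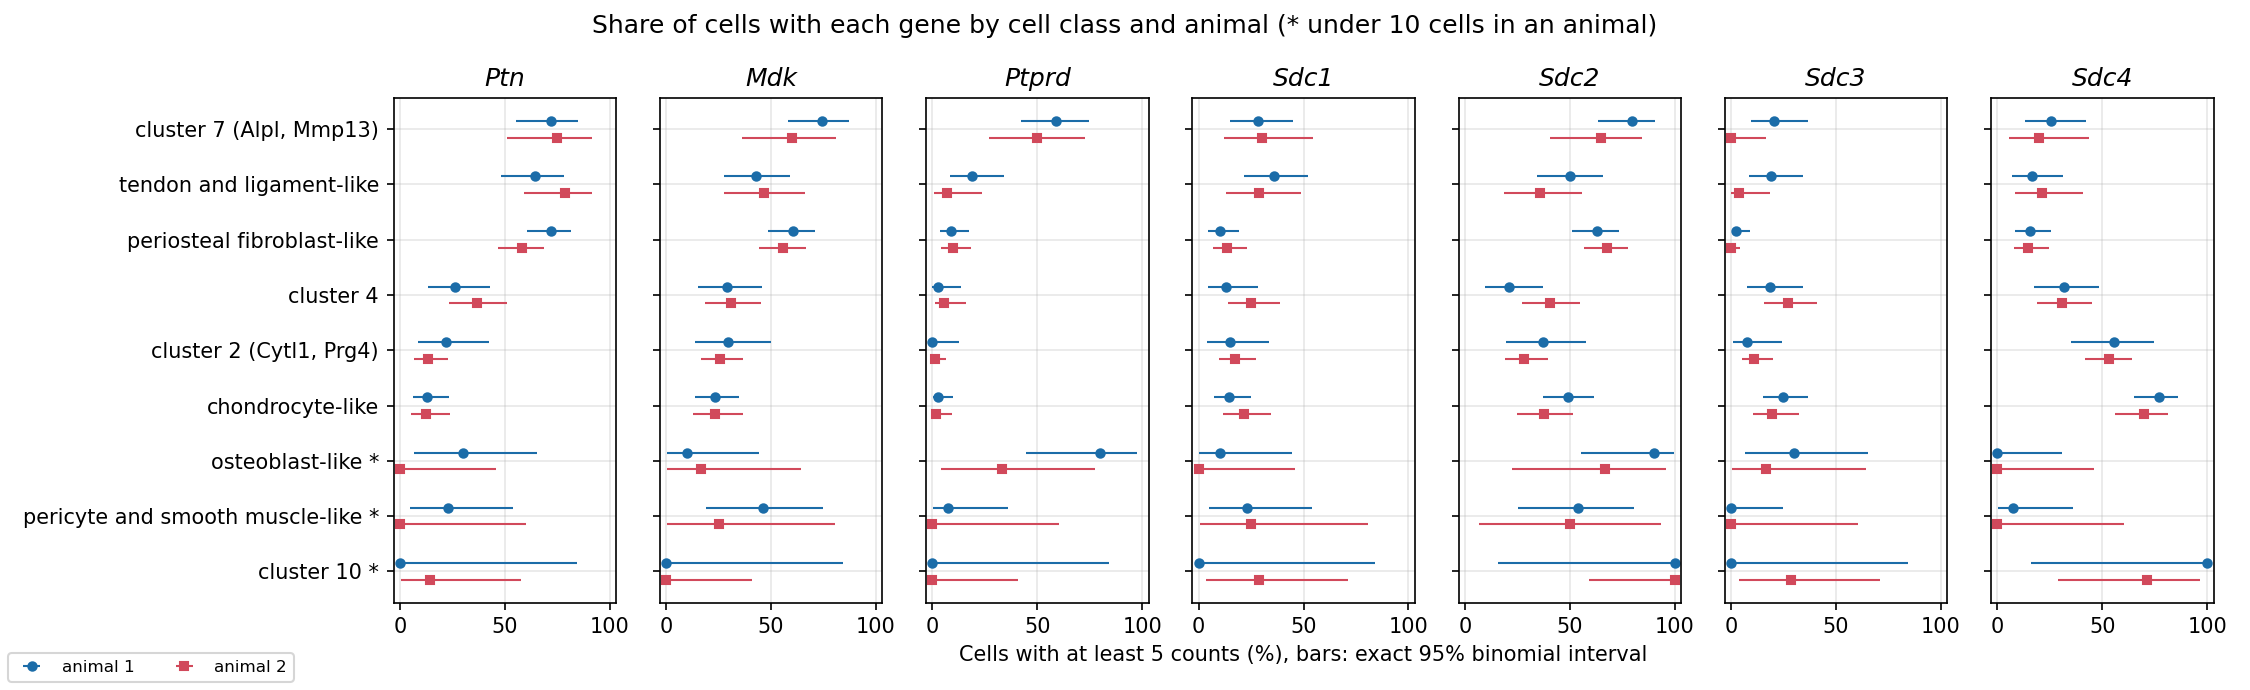
Share of cells (%) with at least 5 counts of each gene by cell class, circles for animal 1 and squares for animal 2, with exact 95% binomial intervals that cover counting error only. Sdc4-positive cells make up 76.8% and 69.6% of chondrocyte-like cells, and Ptprd-positive cells 59.0% and 50% of cluster 7.

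Each plate holds 4 quadrants, and the contrast of chondrocyte-like with all other cells was recomputed in each. The quadrants split the same cells by which the genes were chosen, so they add no replicate to the 2 animals. On the scale log2(CPM + 1), chondrocyte-like over other cells, the mean of the 2 animals was -4.57 for Ptn (-5.08 in animal 1 and -4.07 in animal 2), -1.64 for Mdk, -3.13 for Ptprd and -1.06 for Sdc2, and these 4 genes were lower in chondrocyte-like cells in 8 of 8 quadrants. Sdc4 was at 1.81 (1.87 and 1.75) and higher in 8 of 8 quadrants, from 0.34 to 2.99. Sdc3 was at 0.84 but ranged from -2.53 to 2.95 and was higher in 6 of 8 quadrants. Sdc1 was at -1.07 in animal 1 and 0.06 in animal 2, so its direction differed between the animals. The chondrocyte marker list summed to 44028 CPM in chondrocyte-like cells, 22887 CPM in cluster 2 and 9749 CPM in cluster 4, against 208 CPM in periosteal fibroblast-like cells. Messenger RNA of an abundant cartilage gene was also counted outside cartilage cells: the median cell held 60.5 CPM of Col2a1 among periosteal fibroblast-like and 67.8 CPM in cluster 7, against 15426 CPM among chondrocyte-like cells. The part of such background counts in the low levels given here, such as Ptn in chondrocyte-like cells, was not tested.

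**Figure D3:**
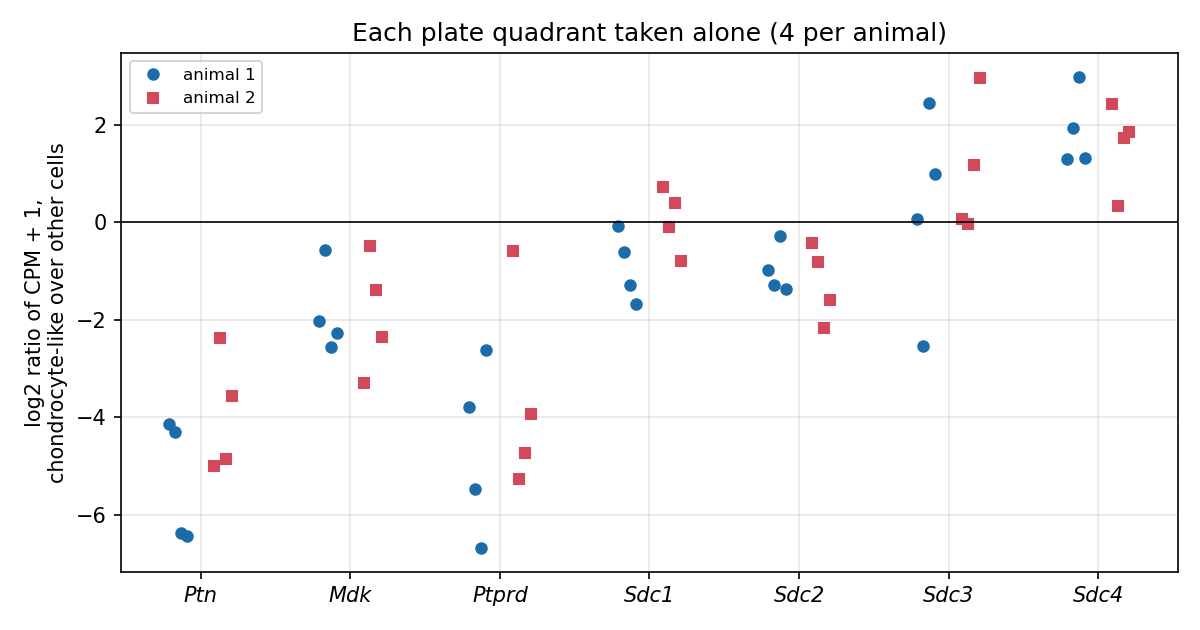
Log2 ratio of CPM + 1, chondrocyte-like over all other cells, for each gene in each of 4 plate quadrants per animal (circles animal 1, squares animal 2), with a line at 0. All 8 points lie below 0 for Ptn, Mdk, Ptprd and Sdc2 and above 0 for Sdc4, whereas the Sdc1 and Sdc3 points fall on both sides.

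Taken as any ligand with any receptor, the transcripts occurred in one cell about as often as their separate shares give over all cells. Single pairs did not all do so. Ptn met Ptprd in 50 cells against 31.1 from the product of the shares, and Sdc2 in 152 against 132. Ptn met Sdc4 in 63 cells against 95.8, Sdc3 in 22 against 34.4 and Sdc1 in 54 against 50.1. Of the 653 cells, 374 were positive for Ptn or Mdk, 148 for both, and 513 for at least 1 of Ptprd and the 4 syndecans. A ligand together with a receptor was seen in 293 cells, 44.9%, against 293.8 from the product of the shares, a receptor alone in 220 and neither in 59. By class, cells with ligand and receptor were 82.1% and 75% of cluster 7, 62.8% and 65.4% of periosteal fibroblast-like cells, and 59.5% and 50% of tendon and ligament-like cells in animals 1 and 2. The same share was 34.8% and 26.8% of chondrocyte-like cells, where cells with a receptor alone were 55.1% and 58.9%. In the osteoblast-like class 12 of 16 cells had a receptor and no ligand.

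Pair by pair over all cells, Ptprd was found in 21.8% of Ptn-positive and 10.8% of Ptn-negative cells of animal 1, and in 15.6% and 3.76% of animal 2. Sdc2 was found in 59.2% of Ptn-positive and 49.4% of Ptn-negative cells of animal 1, and in 55.7% and 41.3% of animal 2. Sdc4 went the other way, 22.5% of Ptn-positive and 45.5% of Ptn-negative cells in animal 1, and 25.4% and 44.1% in animal 2. Sdc3 did as well, 10.6% against 18.2% and 5.74% against 14.5%, while Sdc1 differed little, 19.7% against 16.5% and 21.3% against 19.2%. As a description over cells that share 2 animals and differ in depth, Spearman's rho with the Ptn level (n = 653) was 0.29 for Mdk, 0.18 for Ptprd, 0.13 for Sdc2, 0.03 for Sdc1, -0.14 for Sdc3 and -0.23 for Sdc4.

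Within a class and with the animals pooled, several Ptn and receptor pairs were near the number that the separate shares give. Among periosteal fibroblast-like cells 69 carried Ptn and Sdc2, against 67.4 from the product of the shares, and 18 carried Ptn and Sdc4, against 15.5. For Ptn and Sdc2 the animals went opposite ways there. Sdc2 was found in 58.9% of Ptn-positive and 72.7% of Ptn-negative cells of animal 1, and in 76.6% and 55.9% of animal 2. Among chondrocyte-like cells 12 carried Ptn and Sdc4, against 11.8. In cluster 4 they met in 4 cells against 9.02: Sdc4 was found in 10% and 15.8% of the Ptn-positive cells there and in 39.3% and 39.4% of the Ptn-negative ones in animals 1 and 2. Ptn and Sdc1 met in 13 tendon and ligament-like cells against 16.1. In cluster 7, Ptn and Ptprd met in 27 cells against 24.1. Both ligands were found in 64 periosteal fibroblast-like cells against 59.6 from the product, in 33 cells of cluster 7 against 29.9, in 25 tendon and ligament-like cells against 21.7, in 13 cells of cluster 4 against 8.70 and in 6 cells of cluster 2 against 4.56. Among chondrocyte-like cells they met in 3 against 3.71. Mdk and Sdc2 met in cluster 7 in 37 cells against 30.6, and Mdk and Ptprd in 28 against 22.9. By difference in cells, the pair furthest from the product in cluster 7 among those examined was Sdc2 with Ptprd. There 32 of the 33 Ptprd-positive cells were Sdc2-positive, against 24.6 from the product, with a rho of 0.41 over 59 cells. By ratio Sdc3 with Sdc4 lay further out, at 4 cells against 1.90. Sdc2 and Ptprd met in 8 periosteal fibroblast-like cells against 9.81. Pair counts within a class are not given after thinning, so their dependence on depth was not tested.

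**Figure D4:**
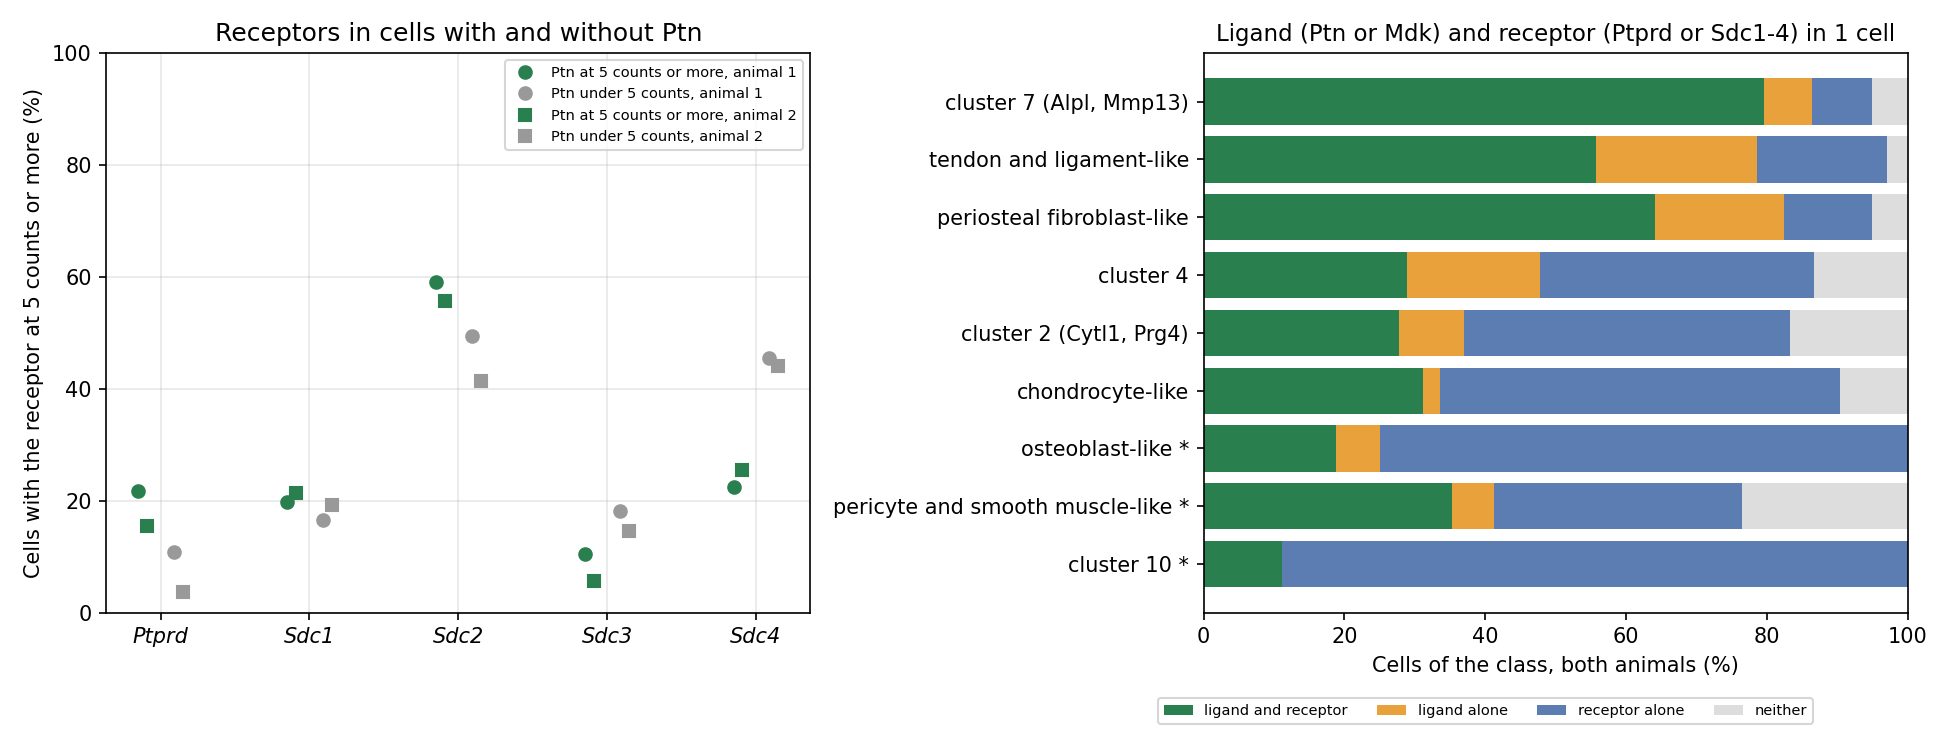
Left, share of cells (%) positive for each receptor gene among Ptn-positive (green) and Ptn-negative (grey) cells of animals 1 (circles) and 2 (squares). Right, cells of each class (%) with a ligand and a receptor, a ligand alone, a receptor alone or neither; a receptor alone was seen in 56.8% of chondrocyte-like and 12.6% of periosteal fibroblast-like cells.

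The syndecans also combined differently. At 5 counts or more, 154 of 653 cells were positive for no syndecan, 285 for 1, 162 for 2 and 52 for 3 or 4. Cells with Sdc2 and without Sdc4 were 55.3% of periosteal fibroblast-like cells and 55.9% of cluster 7, but 12.0% of chondrocyte-like cells. Cells with Sdc4 and without Sdc2 were 41.6% of chondrocyte-like cells and 36.1% of cluster 2, but 5.03% of periosteal fibroblast-like cells. Both genes were positive in 32.0% of chondrocyte-like cells, 40 cells against 40.5 from the product. Cells positive for 3 or 4 syndecans were 16.8% of chondrocyte-like cells and 1.89% of periosteal fibroblast-like cells, classes with median depths of 122098 and 103765 counts per cell.

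Across the 12 sums of 6 classes and 2 animals, Ptn and Mdk levels on the log2 scale had a Pearson r of 0.92, Ptn and Ptprd 0.81, Ptn and Sdc2 0.70, Ptn and Sdc3 -0.55 and Ptn and Sdc4 -0.90. Sums from one animal share a library and the genes were picked for these levels, so the values are a description. Among 3919 genes positive in at least 10% of cells, those most like Ptn by the same measure were Ifitm3 (0.95), Vim (0.94), Igf1 (0.94), Ctsl (0.94) and Olfml2b (0.94). None of these 5 was among the first 5 by Spearman's rho over the same sums. Over single cells the closest to Ptn by Spearman's rho were Col3a1 (0.47), Postn (0.47), Lgals1 (0.43), Aspn (0.43) and Ifitm3 (0.41), and 3 of these 5, Col3a1, Postn and Aspn, are fibroblast markers used to form the clusters. Mdk was most like Aspn (0.97), Tpm4 (0.96), Postn (0.95), Col3a1 (0.95) and Kctd12 (0.95). Ptprd was most like Aspn (0.95), Cdh11 (0.91), Postn (0.91), Actr2 (0.91) and Tmsb10 (0.91).

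The surrounding pathway genes were fitted with all others on the class sums with edgeR's quasi-likelihood test, with animal as a block. Because the classes were formed from the same cells, an adjusted p here ranks genes and is no test of the classes. Of 13804 genes fitted, 124 passed an adjusted p of 0.05 between chondrocyte-like cells and the mean of the other 5 classes, 0.898% of genes. Higher genes were 0.493%, lower genes 0.406%, and 0.766% of genes outside the marker lists passed. For periosteal fibroblast-like cells 248 passed, 1.8%, with 1.1% higher, 0.695% lower and 1.61% of genes outside the marker lists. The 7 genes were part of the fit, but as they were chosen by these levels no call is given for them.

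Of 116 listed pathway genes, 110 were in the table and 92 could be fitted, and 3 passed in the chondrocyte-like comparison and 2 in the periosteal fibroblast-like one. The counts moved with the method, to 8 and 8 with a DESeq2 Wald test and to 7 and 9 with cells thinned to 10000 counts. Calls over all genes rose as well. They were 441 and 637 of 13804 genes with DESeq2, and 282 and 418 of the 7759 genes fitted after thinning. The median log2 difference over the 92 was -0.10 and 0.38, against 0.23 and 0.28 over all genes fitted. Values below are CPM after TMM scaling, and log2 differences carry their standard error over 5 residual degrees of freedom. The share of all fitted genes with an unadjusted p under 0.05 was not counted. The unadjusted counts given per list below therefore have no background beside them and are not read as an excess.

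Among other pleiotrophin and midkine receptors, 0 of 11 fitted genes passed in either comparison by edgeR, and 3 and 4 had an unadjusted p under 0.05. Ptprz1, the best studied pleiotrophin receptor, had 301 counts in all, was positive in 1.23% of cells and had 27.2% of its counts in 1 cell. Alk and Ltk were not analysed here. Itgb1, the integrin beta subunit with the highest level of the list, was at 171 and 97.1 CPM in chondrocyte-like cells and 311 and 299.8 CPM in the rest (log2 -1.11 ± 0.26, adjusted p = 0.155).

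Among the other type IIa phosphatases and their partners, 0 of 10 passed by edgeR in either comparison, with 1 and 3 at an unadjusted p under 0.05. Ptprs, the closest relative with the highest level, was at 31.6 and 17.8 CPM in chondrocyte-like cells against 85.6 and 70.4 CPM in the rest (log2 -1.36 ± 0.46, adjusted p = 0.347). Before scaling Ptprs was at 118 and 187 CPM in tendon and ligament-like cells, 135 and 66.5 CPM in periosteal fibroblast-like cells and 95.2 and 66.9 CPM in cluster 7, so that the highest of the large classes differed between the animals. Ptprf, the third phosphatase of the type, was at 7.86 and 10.4 CPM in chondrocyte-like cells and 11.1 and 19.7 CPM in the rest.

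Among other heparan sulfate proteoglycans, 1 of 8 was lower in chondrocyte-like cells and 2 of 8 were higher in periosteal fibroblast-like cells. Gpc3, a glypican anchored to the membrane by a lipid, was at 23.2 and 41.9 CPM in chondrocyte-like cells (log2 -2.31 ± 0.35, adjusted p = 0.0292) and at 638 and 487 CPM in periosteal fibroblast-like cells (log2 2.72 ± 0.25, adjusted p = 0.0022). Col18a1, which encodes a basement membrane collagen with heparan sulfate chains, was at 65.5 and 93.9 CPM in periosteal fibroblast-like cells and 4.27 and 16.2 CPM in the rest (log2 5.44 ± 0.71, adjusted p = 0.0100). Several of the other classes were near 0 for Col18a1, chondrocyte-like cells at 0.12 CPM in both animals, so that its fitted ratio depends on the prior count.

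Genes that build the sugar chains mostly did not pass. Of 25 fitted genes of heparan sulfate synthesis and modification, 1 was higher in chondrocyte-like cells: Papss2, which makes the sulfate donor used for all sulfated glycosaminoglycans, at 289 and 212 CPM against 56.7 and 56.9 CPM (log2 2.82 ± 0.33, adjusted p = 0.0103). In that comparison 7 of the 25 had an unadjusted p under 0.05. In the periosteal fibroblast-like comparison 0 of 25 passed by edgeR, with 4 at an unadjusted p under 0.05. Among 14 genes of chondroitin and dermatan sulfate synthesis, 0 passed by edgeR in either comparison, with 2 and 1 at an unadjusted p under 0.05. Chpf, a chondroitin polymerizing factor and the one with the highest level, was at 73.0 and 53.8 CPM in chondrocyte-like cells and 97.1 and 63.0 CPM in the rest.

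Among 16 cytoplasmic partners of the syndecans, 0 passed by edgeR in either comparison, with 1 and 4 at an unadjusted p under 0.05. Rac1, the small GTPase with the highest level of that list, was at 294 and 236 CPM in chondrocyte-like cells and 223 and 331 CPM in the rest, so the direction differed between animals. Of 8 genes linked to syndecan shedding, 1 was lower in chondrocyte-like cells: Mmp14, a membrane-bound metalloproteinase, at 23.01 and 38.6 CPM against 204 and 153 CPM (log2 -2.30 ± 0.36, adjusted p = 0.0363). Mmp2, the gene with the highest level there, was at 430.3 and 268 CPM against 859 and 683 CPM (log2 -0.96 ± 0.27, adjusted p = 0.236). In the periosteal fibroblast-like comparison 0 of 8 shedding genes passed by edgeR, with 4 at an unadjusted p under 0.05.

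**Figure D5:**
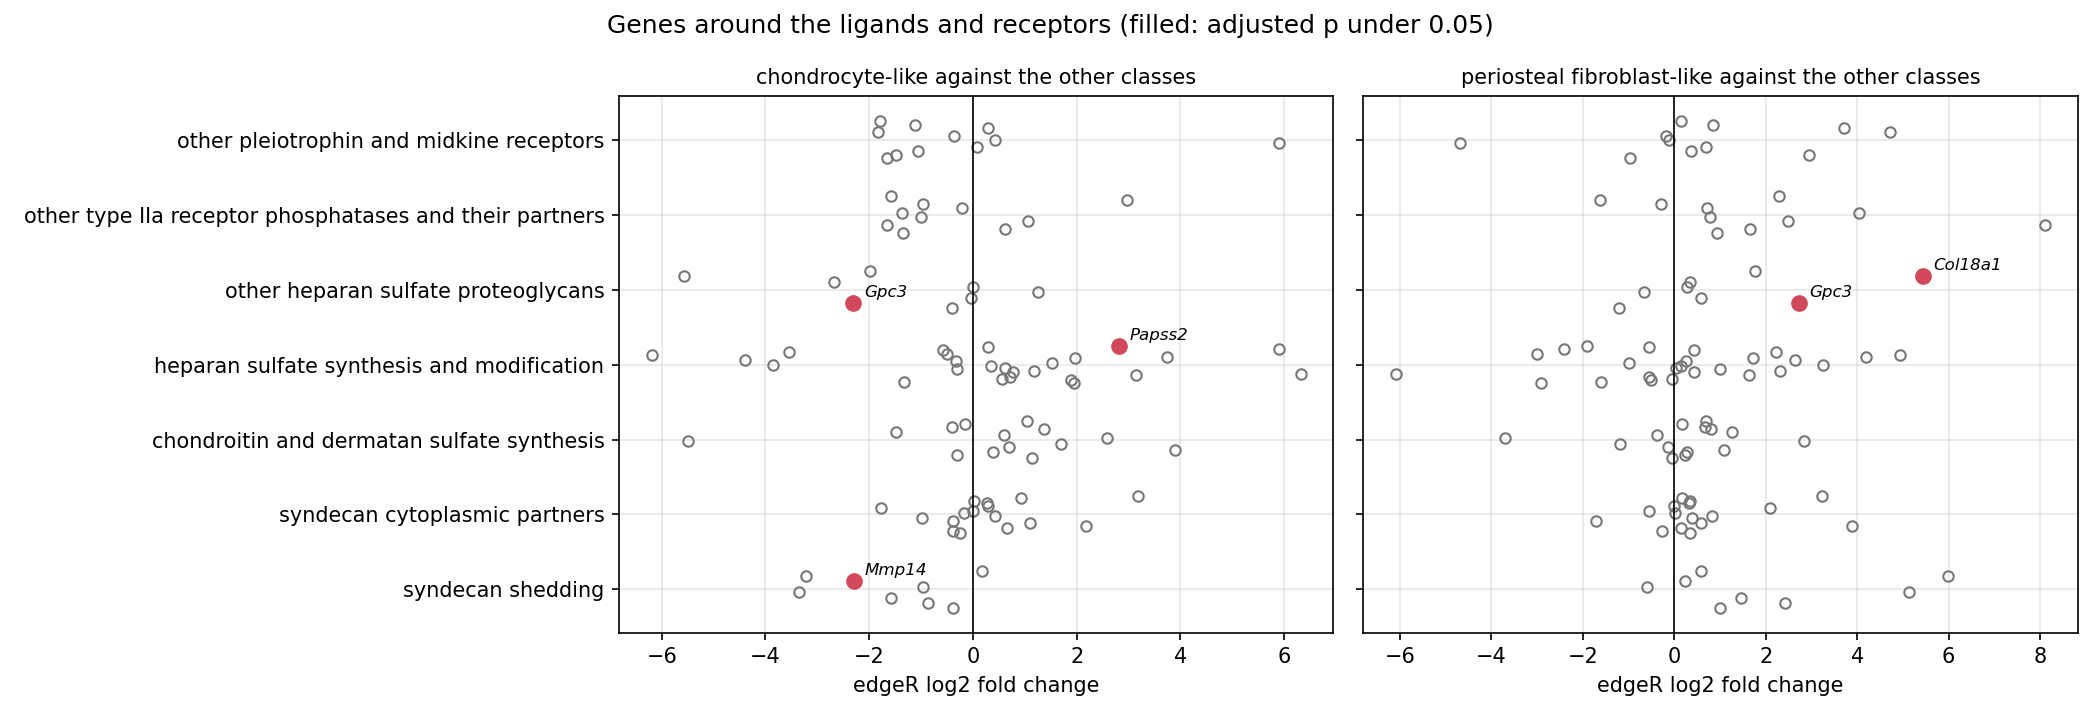
edgeR log2 fold change of each fitted pathway gene, by list, for chondrocyte-like (left) and periosteal fibroblast-like cells (right) against the mean of the other classes; filled points have an adjusted p under 0.05. Papss2 lies at 2.82 and Gpc3 and Mmp14 at -2.31 and -2.30 on the left, and Gpc3 and Col18a1 at 2.72 and 5.44 on the right.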

How the data were processed

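Single-cell libraries from 2 animals were measured, 1 plate each. The deposited values are whole-number counts per gene and well, which the authors made with CASAVA and mm10 per the submitters' processing notes. Aligner, counting tool, annotation and the handling of duplicates stay unknown, being not given in the sources used here. Nonzero values had a median of 18 counts, so a count was not read as 1 molecule. No doublet caller was run.

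Wells were filtered, centred per animal, scaled over all cells and clustered on marker genes (20 principal components, 15 neighbours, leidenalg 0.10.2 at resolution 1). The 7 genes, the marker and pathway lists and the naming rule were chosen with earlier results of these data known. Named were the 7 genes; of each pathway list the genes passing edgeR, the one with the highest CPM, and Ptprz1, Alk, Ptprs and Ptprf; and the 5 genes most like Ptn, Mdk and Ptprd. A class needed 10 cells per animal to be fitted with edgeR 4.0.16 (filterByExpr, TMM, Benjamini-Hochberg over all genes; tested on simulated data). DESeq2 1.42.0 was an alternative. Intervals are exact 95% binomial (Clopper-Pearson); these and the limit of 3 counts for a 0 cover counting error only. p-values rest on the spread of the class sums left after the animal block, with 1 estimate shared by all classes. The sums come from only 2 littermates. Totals were 35542100 and 42280920 counts.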

Additional observations from a re-analysis of the deposited data

How the results depend on the processing

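The direction of the chondrocyte-like contrast for Ptn, Mdk, Ptprd, Sdc2, Sdc3 and Sdc4 held under each setting tried; the Sdc1 ratio was -1.07 without animal 2 and 0.06 without animal 1. With cells thinned to 10000 counts the log2 ratio was -2.27 for Ptprd and 0.53 for Sdc3. Clustering at resolution 0.5, which put 231 cells in the chondrocyte-like class, gave -1.38 for Sdc2, 0.48 for Sdc3 and 2.14 for Sdc4. Averaging each cell's CPM gave 0.66 for Sdc3 and 1.65 for Sdc4. Without a mitochondrial limit Sdc3 was at 0.72; with at least 1000 detected genes Sdc4 was at 1.72, and without its highest cell at 1.73. Under those 2 filters the periosteal fibroblast-like class held 70 and 62 cells in place of 159. Levels, positive shares and edgeR calls of that class are not given under either filter, so how far they depend on its make-up was not tested. As a mean of the 2 animals, Ptn met Ptprd, Sdc2, Sdc3 and Sdc4 in 7.71%, 23.4%, 3.40% and 9.66% of cells. Taking 1 count as positive gave 11.7%, 33.3%, 8.48% and 21.3%, and Ptn with Sdc4 was at 7.67% with 10 counts and 8.93% after thinning. Spearman in place of Pearson kept 0 of the 5 genes most like Ptn and 3 of 5 for Ptprd. Calls over all genes for chondrocyte-like cells were 441 with DESeq2, 282 after thinning and 197 with clustering on variable genes. For periosteal fibroblast-like cells DESeq2 gave 637 and thinning 418. After thinning 7759 genes were fitted, in place of 13804. Pathway calls became 8 and 8 with DESeq2 and 7 and 9 after thinning, and 1 for periosteal fibroblast-like cells with clustering on variable genes, where Col18a1 no longer passed (log2 5.48). The causes were not tested. Classes were paired within animals by the replicate block; leaving out the block gave 144 and 316 calls over all genes and 3 and 2 pathway calls. Without either animal each class has 1 sum, so no count of calls can be had. With DESeq2 size factors the median log2 difference of all genes was 0.15 and 0.30, against 0.23 and 0.28. Depth and 2 animals limit the order of the low genes Sdc1, Sdc3 and Ptprd.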
